A study of Mus musculus with 8 samples.

Results

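The genes described are 34 genes of blood coagulation and its control, chosen by symbol from the 24411 genes of the deposited table, and all 34 were present. They encode the fibrinogen chains, the plasma clotting factors, the natural anticoagulants, the enzymes of vitamin K-dependent modification and the cargo receptor of 2 clotting cofactors. They were measured by RNA sequencing in hepatocytes of mice with a hepatocyte-specific Taf2 conditional knockout (CKO, 4 libraries, genotype label TAF2 KO) and of wild-type mice (WT, 4 libraries). Both groups were isolated from liver, plated, and harvested 2 days later. Taf2 encodes a subunit of TFIID, the general factor that binds core promoters. The sources used here do not give the promoter that drove the deletion, the deleted part of Taf2, or the age, sex and strain of the mice. Nor do they say whether the 4 libraries of a genotype came from separate animals or cultures, so p-values measure only the spread between these libraries, which may be technical.

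Coagulation is a chain of proteolytic steps in blood plasma that ends when thrombin, made from prothrombin (F2), cuts fibrinogen into fibrin. Tissue factor (F3) with factor VII starts the chain, the contact system and factors XI, IX and VIII extend it, and factor XIII crosslinks the fibrin. Serpins, tissue factor pathway inhibitor and the protein C system hold it in check. Hepatocytes secrete most of these proteins, while factor VIII, tissue factor pathway inhibitor, thrombomodulin and the endothelial protein C receptor come chiefly from endothelial cells, and the A subunit of factor XIII from macrophages and megakaryocytes.

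Library totals ran from 20287023 to 23933589 estimated counts in CKO and from 18947059 to 22824568 in WT. Taf2 itself had 269 to 329 counts in the CKO libraries and 865 to 979 in the WT libraries, so no library went against its label; whether the reads fall inside the deleted part is not known. Hepatocyte markers were abundant in both groups, and of 11 tested 5 rose and 5 fell. Markers of other liver cells were higher in CKO, where 12 endothelial markers summed to between 139 and 145 counts-per-million (CPM), against 56.6 to 62.8 CPM in WT. The 12 macrophage markers summed to between 243 and 273 CPM in CKO and between 89.7 and 119 CPM in WT. The stellate cell markers summed to between 142 and 156 CPM in CKO and between 66.2 and 70.7 CPM in WT. In such bulk samples fewer cells of a type and less RNA per cell cannot be told apart.

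Of the 34 coagulation genes, 33 passed the filter on low counts, and 15 were higher and 12 lower in CKO at an edgeR adjusted p under 0.05. Of all 12122 genes tested, 30.2% were called higher and 31.2% lower, 61.4% in all. The coagulation genes are mostly abundant, and at a mean of at least 20 CPM 21 of 24 were called, against 65.6% of all genes at that level. The median absolute log2 fold change was 0.30 for the 33 coagulation genes and 0.22 for all genes tested, and the median log2 fold change was 0.08 and -0.0035. CPM ranges of the 2 genotypes did not overlap for 26 of the 33, against 54.7% of all genes. A log2 change of at least 1 was reached by Tfpi alone among the called higher genes and by Pros1 and A2m among the called lower genes, while 6.9% of all genes rose and 2.6% fell that far. Pros1 only just reached it, at -1.005. Grouped by textbook function after the values were seen, 10 of 16 clotting factors tested rose and 4 fell, and 4 of 11 natural anticoagulants rose and 4 fell.

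**Figure D1:**
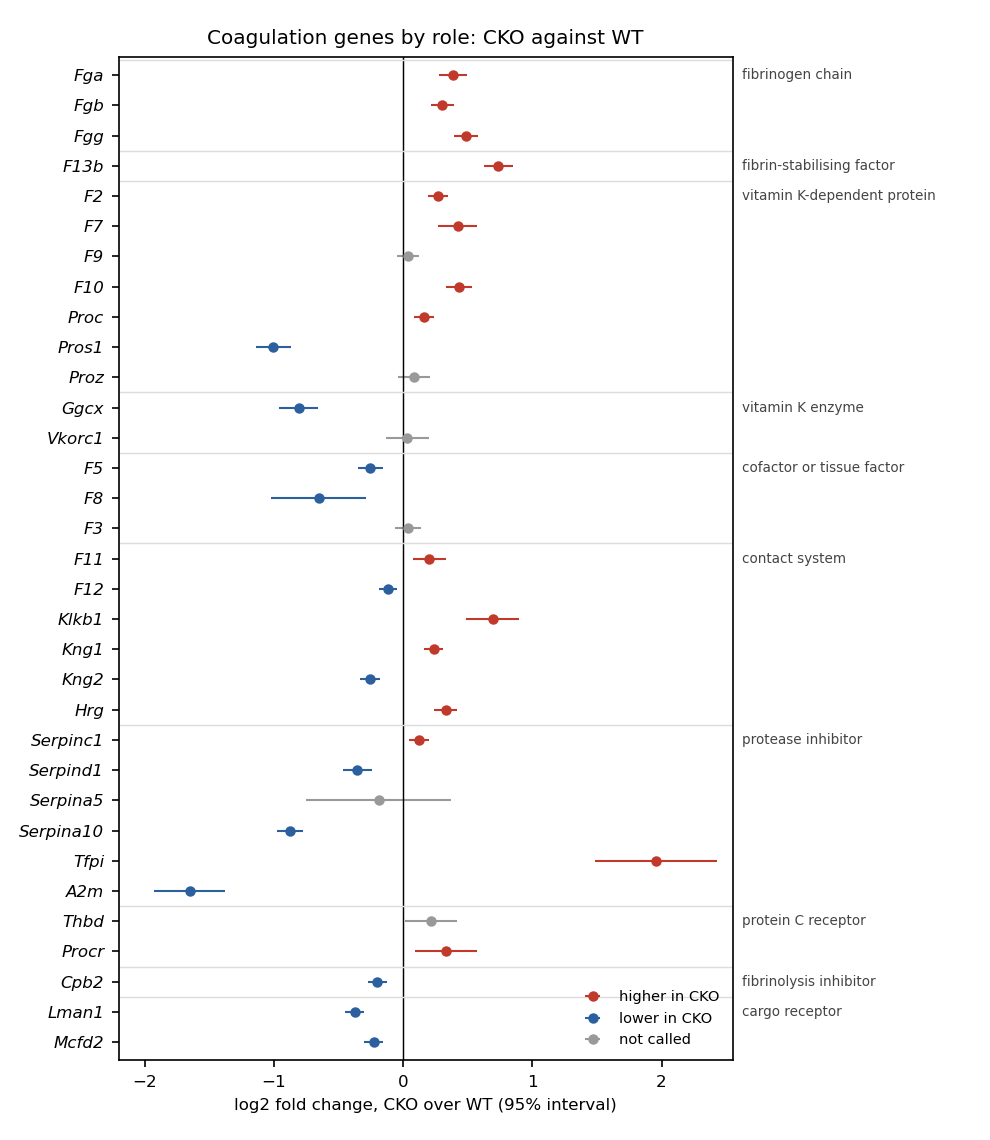
Log2 fold change (CKO over WT, x axis) of the 33 tested coagulation genes, ordered by role, with 95% intervals from the edgeR fit as bars. All 3 fibrinogen genes and F13b lie to the right of 0, Pros1, Ggcx, Serpina10 and A2m lie to the left, and Tfpi has the largest rise at 1.96.

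The coagulation genes together took 9278 ± 309 CPM in CKO and 7982 ± 330 CPM in WT (SD, n = 4 each). The fibrinogen genes made up 4763 ± 196 CPM of this in CKO and 3690 ± 256 CPM in WT. The other 31 genes summed to 4515 ± 114 CPM in CKO and 4292 ± 100.5 CPM in WT, so most of the difference in the sum lay in fibrinogen. Per kilobase of transcript the fibrinogen genes were the 3 most abundant members in both genotypes, with 596 to 625 CPM per kilobase in CKO and 445.8 to 483 CPM per kilobase in WT. F2 followed with 521 CPM per kilobase in CKO and 431 in WT, and Kng1 with 397 in CKO and 337 in WT. Lengths were those of the annotated transcripts, and the true ends of the transcripts in these cells were not measured. With coding lengths the fibrinogen genes still held the 3 highest places and F2 the next in both genotypes, but the order among the fibrinogen genes changed, with Fgb highest in both, as did the order below F2.

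Fibrinogen is a hexamer of paired α, β and γ chains, encoded by Fga, Fgb and Fgg, which lie side by side on chromosome 3 from 83007724 to 83049863 (build mm10). The region just upstream of each gene is shown because the 3 genes lie together and rose together. The stretches run from 180 bases before the annotated start to 50 bases from it (RefSeq, GRCm38.p6). They are chr3:83025973-83026202 (plus strand) for Fga, chr3:83049814-83050043 (minus strand) for Fgb and chr3:83007544-83007773 (plus strand) for Fgg. Capitals mark GTTAAT or its reverse complement ATTAAC, as in sites of the hepatocyte factor HNF1, and TTGCAA, which reads the same on both strands, as in sites of C/EBP factors.
Fga: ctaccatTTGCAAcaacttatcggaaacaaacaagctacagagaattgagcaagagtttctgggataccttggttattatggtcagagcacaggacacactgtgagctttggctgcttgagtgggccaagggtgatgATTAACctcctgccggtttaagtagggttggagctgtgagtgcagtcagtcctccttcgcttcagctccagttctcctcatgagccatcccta
Fgb: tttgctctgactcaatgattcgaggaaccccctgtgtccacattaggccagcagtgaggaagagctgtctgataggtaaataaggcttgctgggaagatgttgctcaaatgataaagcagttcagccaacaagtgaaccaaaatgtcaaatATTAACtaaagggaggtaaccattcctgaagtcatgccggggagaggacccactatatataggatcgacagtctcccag
Fgg: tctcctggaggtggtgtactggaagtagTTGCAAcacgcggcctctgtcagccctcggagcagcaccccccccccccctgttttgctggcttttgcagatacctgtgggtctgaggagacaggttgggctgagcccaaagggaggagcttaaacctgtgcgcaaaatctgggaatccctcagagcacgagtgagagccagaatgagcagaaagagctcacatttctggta
With the start counted as 0 and each match placed by its first base shown, the Fga stretch held a GTTAAT match at position -43 and a TTGCAA match at position -173, the Fgb stretch a GTTAAT match at -29, and the Fgg stretch a TTGCAA match at -152. Such a match is a string of letters and not a measured binding site.

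All fibrinogen genes rose in CKO, to between 123.5% and 140.2% of the WT level. Fgg had 1063.5, 1058, 1104 and 1012 CPM in CKO, against 733, 811, 699 and 779 CPM in WT. Every CKO library lay above every WT library, and the log2 fold change was 0.49 (SE 0.0429; edgeR adjusted p = 5.43e-09). Fga had 1531, 1409, 1475 and 1312 CPM in CKO, against 1006, 1218, 1052 and 1103 CPM in WT. Its ranges did not overlap either (log2 fold change 0.39, SE 0.0524; edgeR adjusted p = 2.33e-06). Fgb, the most heavily sequenced of the 34 genes, had 2301, 2349, 2288 and 2148 CPM in CKO, against 1765, 2011, 1742 and 1839 CPM in WT. CKO was again higher throughout (log2 fold change 0.30, SE 0.0433; edgeR adjusted p = 4.43e-06). Wild-type replicate 2 had the highest values of Fga, Fgb and Fgg in its group. Plrg1, the next gene beside Fgb and a splicing factor gene, stood at 45.4 ± 1.30 CPM in CKO and 45.3 ± 2.27 CPM in WT (edgeR adjusted p = 0.956).

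The chains did not rise by the same amount. Of the summed fibrinogen signal per kilobase, Fgg took 33.3% to 34.7% in CKO libraries and 31.2% to 32.6% in WT libraries. Fgb took 31.9% to 33.4% in CKO libraries and 34.1% to 34.9% in WT libraries. Neither pair of ranges overlapped, whereas the ranges of Fga did, at 32.6% to 34.7% in CKO and 32.5% to 34.1% in WT. These shares depend on the transcript lengths used, which cancel between genotypes only in the ratio of 1 chain to another.

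**Figure D2:**
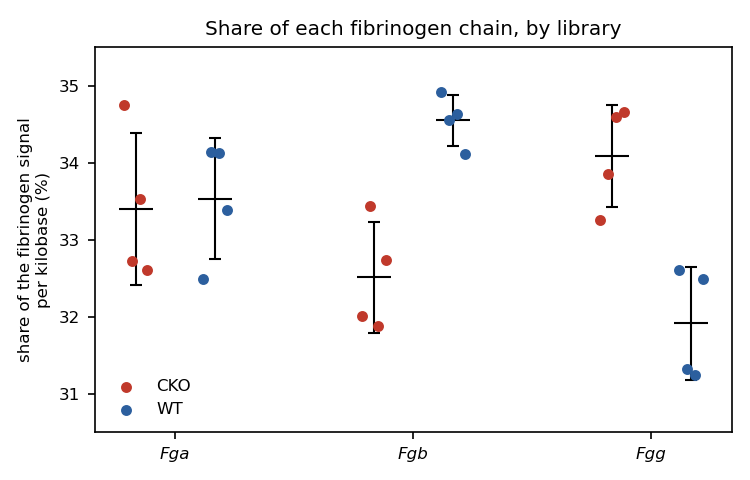
Share of each fibrinogen chain (y axis, percent of the summed CPM per kilobase of Fga, Fgb and Fgg; the axis does not start at 0) in each library, CKO left of WT, with the mean and SD of 4 libraries. Fgg shares are higher in all CKO libraries, at 33.3% to 34.7%, and Fgb shares are lower, at 31.9% to 33.4%.

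Factor XIII, the transglutaminase that crosslinks fibrin, has a catalytic A subunit and a carrier B subunit. F13b, on chromosome 1 from 139501702 to 139523752, encodes the carrier and had 36.7, 35.2, 36.6 and 32.6 CPM in CKO, against 20.7, 22.1, 21.2 and 20.8 CPM in WT. The log2 fold change of 0.74 (SE 0.0535; edgeR adjusted p = 2.84e-10) was the largest rise among the clotting factors. F13a1, the gene of the catalytic subunit, had at most 2 counts in any library of either genotype, under a floor of 3 counts, and was not tested. The 12 megakaryocyte and platelet markers summed to between 20.3 and 22.3 CPM in CKO and between 7.07 and 9.53 CPM in WT. Most of this was Itgb3, an integrin gene also expressed by other cells, with 18.5 ± 0.743 CPM in CKO and 5.88 ± 0.637 CPM in WT (log2 fold change 1.65, SE 0.0785; edgeR adjusted p = 3.97e-13), and 7 of the 12, among them Ppbp, Gp9 and Gp1ba, were at 0 counts in all 8 libraries. The stretch upstream of F13b, chr1:139501527-139501756 (plus strand), is shown because its capitals mark a GTTAAT match at position -51. Counted from the annotated starts, this position is near those of the matches in Fga and Fgb. The starts used in these cells were not measured.
F13b: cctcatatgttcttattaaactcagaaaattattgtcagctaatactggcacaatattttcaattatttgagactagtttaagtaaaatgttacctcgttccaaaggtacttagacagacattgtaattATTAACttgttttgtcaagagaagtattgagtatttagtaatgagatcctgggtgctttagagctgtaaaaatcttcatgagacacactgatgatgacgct

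Prothrombin, factors VII, IX and X, protein C, protein S and protein Z carry a domain in which glutamates are carboxylated with vitamin K as cofactor. Of these 7 genes 4 rose, 1 fell and 2 were not called, while 30.2% of all genes tested were called higher and 31.2% lower. F2 had 1060, 1057, 1038 and 986 CPM in CKO, against 878, 874, 870 and 808 CPM in WT. All CKO values lay above all WT values (log2 fold change 0.27, SE 0.0371; edgeR adjusted p = 2.57e-06). F10, which encodes the protease that activates prothrombin, had 216, 210, 220 and 194 CPM in CKO, against 158, 170, 152 and 144 CPM in WT (log2 fold change 0.43, SE 0.0481; edgeR adjusted p = 1.81e-07). F7, the partner of tissue factor, rose by a similar factor from a lower level, with 24.9 ± 2.48 CPM in CKO and 18.6 ± 1.23 CPM in WT (log2 fold change 0.42, SE 0.0720; edgeR adjusted p = 3.95e-05). Proc, which encodes the anticoagulant protease protein C, rose to 167 ± 5.12 CPM in CKO, against 150 ± 4.52 CPM in WT (log2 fold change 0.16, SE 0.0368; edgeR adjusted p = 0.000844). F9, the gene that is defective in haemophilia B, had 83.6 ± 2.97 CPM in CKO and 81.4 ± 3.88 CPM in WT, and its log2 fold change was between -0.05 and 0.12 (95% interval; edgeR adjusted p = 0.428).

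F7, F10 and Proz follow one another on the plus strand of chromosome 8, from 13026034 to 13076026. Proz, which encodes the cofactor of the protein Z-dependent protease inhibitor, had 31.9, 28.8, 31.1 and 27.6 CPM in CKO and 27.8, 30.9, 27.6 and 26.8 CPM in WT. These ranges overlapped (log2 fold change 0.08, 95% interval -0.04 to 0.20; edgeR adjusted p = 0.234). The upstream stretches of these neighbours are shown because F7 and F10 were called and Proz was not. They are chr8:13025854-13026083 (plus strand) for F7, chr8:13037128-13037357 (plus strand) for F10 and chr8:13060728-13060957 (plus strand) for Proz. None of the HNF1, HNF4, C/EBP and TATA letters searched was found in them, so they have no capitals, while the F7 start itself lies at the A of a CA. In the longer window of Proz a GTTAAT match lay at position -211.
F7: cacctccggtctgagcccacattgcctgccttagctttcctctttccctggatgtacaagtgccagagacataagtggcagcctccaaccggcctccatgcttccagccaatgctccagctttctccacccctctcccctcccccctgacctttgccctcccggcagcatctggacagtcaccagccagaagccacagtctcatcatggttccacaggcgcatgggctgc
F10: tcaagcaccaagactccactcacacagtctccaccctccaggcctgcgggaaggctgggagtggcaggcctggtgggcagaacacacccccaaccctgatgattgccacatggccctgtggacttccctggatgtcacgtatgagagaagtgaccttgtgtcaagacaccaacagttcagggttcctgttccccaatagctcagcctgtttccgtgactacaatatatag
Proz: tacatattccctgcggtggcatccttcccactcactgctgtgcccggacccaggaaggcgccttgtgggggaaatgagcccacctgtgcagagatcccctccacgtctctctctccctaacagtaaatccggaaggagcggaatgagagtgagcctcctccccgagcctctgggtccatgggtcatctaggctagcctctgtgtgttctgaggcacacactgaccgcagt

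Pros1 went the other way. It encodes protein S, the cofactor of activated protein C, and had 25.0, 28.8, 22.8 and 27.5 CPM in CKO, against 47.1, 50.9, 55.5 and 54.9 CPM in WT. The CKO level was 49.8% of that in WT, with no overlap (log2 fold change -1.005, SE 0.0651; edgeR adjusted p = 4.78e-11). Ggcx, the carboxylase that modifies all 7 proteins, fell to 57.1% of the WT level, with 7.70, 8.19, 7.91 and 8.57 CPM in CKO, against 13.3, 14.3, 15.3 and 13.8 CPM in WT (log2 fold change -0.81, SE 0.0732; edgeR adjusted p = 8.13e-09). Vkorc1, which recycles vitamin K and is the target of warfarin, had 17.0 ± 1.87 CPM in CKO and 16.6 ± 1.31 CPM in WT (95% interval of the log2 fold change -0.13 to 0.20; edgeR adjusted p = 0.738). The carboxylase was lower in the libraries in which 4 of its 7 substrates, and 30.2% of all genes tested, were called higher. The upstream stretches of Pros1, chr16:62854127-62854356 (plus strand), and Ggcx, chr6:72414128-72414357 (plus strand), which both fell, are shown for comparison with those above. None of the motifs searched lies in them. Other called lower genes did hold matches, Kng2 a TTGCAA at position -39 and Cpb2 an AAAGTCC, as in sites of HNF4, at position 27.
Pros1: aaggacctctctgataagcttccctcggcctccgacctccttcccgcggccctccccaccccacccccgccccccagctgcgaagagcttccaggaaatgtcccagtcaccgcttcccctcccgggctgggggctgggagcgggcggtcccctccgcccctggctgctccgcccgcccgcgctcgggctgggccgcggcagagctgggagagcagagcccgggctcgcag
Ggcx: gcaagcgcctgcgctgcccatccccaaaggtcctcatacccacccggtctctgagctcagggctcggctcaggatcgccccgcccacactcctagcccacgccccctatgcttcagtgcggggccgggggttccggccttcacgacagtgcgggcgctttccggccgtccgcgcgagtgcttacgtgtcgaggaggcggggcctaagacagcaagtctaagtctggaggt

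**Figure D3:**
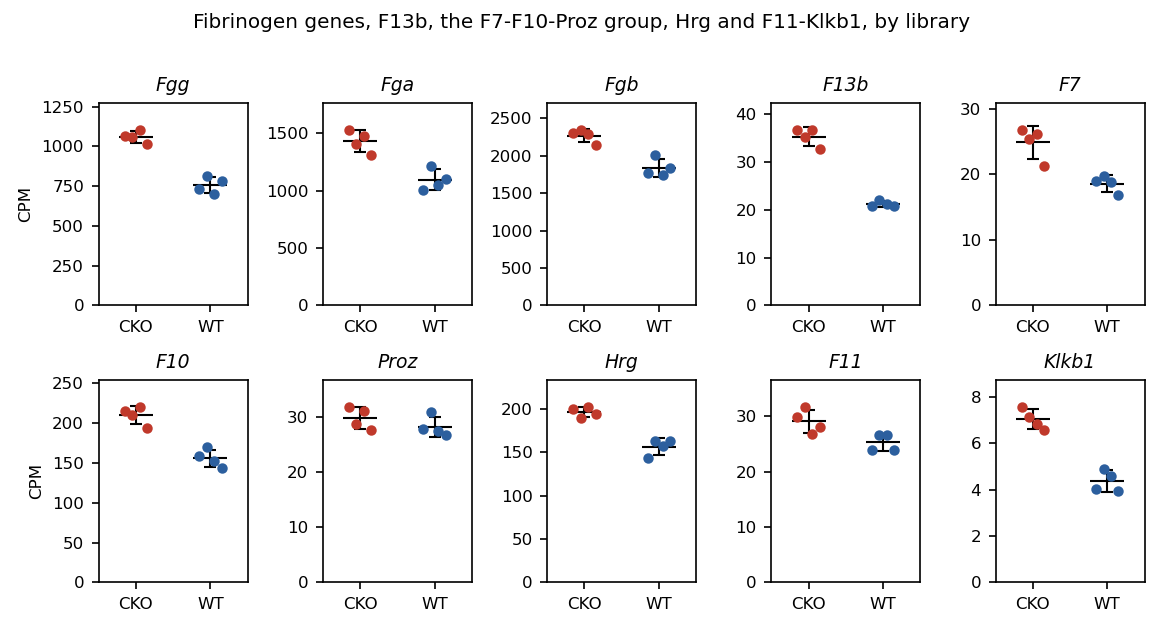
CPM (y axis, from 0) in each library for 10 coagulation genes, CKO left of WT, with the mean and SD of 4 libraries. In all but Proz the CKO libraries lie above the WT libraries, for Fgg at 1012 to 1104 CPM in CKO against 699 to 811 CPM in WT.

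The cofactors of the protease complexes, factors V and VIII, were lower. F5 had 98.8, 93.3, 94.3 and 90.0 CPM in CKO, against 100.5, 119, 117 and 113 CPM in WT. The lowest WT library, replicate 1, lay just above the highest CKO library (log2 fold change -0.25, SE 0.0468; edgeR adjusted p = 9.15e-05). F8, the gene that is defective in haemophilia A, was low in both genotypes, with 31 to 37 counts in CKO libraries and 41 to 67 in WT libraries. It stood at 1.58 ± 0.156 CPM in CKO and 2.48 ± 0.541 CPM in WT (log2 fold change -0.65, SE 0.175; edgeR adjusted p = 0.00305). In the same CKO libraries 9 of 10 tested endothelial markers were called higher, against 30.2% of all genes tested. The part of other cells in the F8 result was not tested. F3, which encodes tissue factor, had 132 ± 6.79 CPM in CKO and 129 ± 10.1 CPM in WT (95% interval -0.07 to 0.14; edgeR adjusted p = 0.533).

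Both genes of the cargo receptor that carries factors V and VIII from the endoplasmic reticulum to the Golgi fell as well. Lman1 had 99.0, 101, 100.5 and 102 CPM in CKO, against 129, 131, 137 and 125 CPM in WT (log2 fold change -0.37, SE 0.0365; edgeR adjusted p = 2.39e-08). Mcfd2, its calcium-binding partner, had 111, 116, 115 and 110.3 CPM in CKO, against 131, 138, 130.3 and 130.1 CPM in WT (log2 fold change -0.23, SE 0.0359; edgeR adjusted p = 1.65e-05). Neither gene's ranges overlapped. The CKO level of these genes was 83.8% of that in WT for F5, 63.6% for F8, 77.1% for Lman1 and 85.4% for Mcfd2.

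In the contact system, factor XII and plasma kallikrein activate each other on kininogen. All 6 genes grouped with it here were called, 4 higher and 2 lower, against 61.4% of all genes tested. The 6 include Hrg, which was not counted among the clotting factors above. Klkb1, which encodes the precursor of plasma kallikrein, rose to 7.03 ± 0.428 CPM in CKO, against 4.37 ± 0.463 CPM in WT (log2 fold change 0.69, SE 0.0996; edgeR adjusted p = 5.14e-06). Its exons overlap those of a read-through transcript of the same strand in the annotation. F11 lies beside Klkb1 on chromosome 8 and rose to 29.1 ± 2.10 CPM in CKO, against 25.3 ± 1.56 CPM in WT (log2 fold change 0.20, SE 0.0606; edgeR adjusted p = 0.00682), with only a narrow gap between the lowest CKO library at 26.8 CPM and the highest WT library at 26.7 CPM. F12 had 303, 306, 306 and 287 CPM in CKO, against 328, 331, 324 and 319 CPM in WT. This was a small fall without overlap (log2 fold change -0.12, SE 0.0343; edgeR adjusted p = 0.00621).

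Mice have 2 kininogen genes, Kng1 and Kng2, which lie beside Hrg on chromosome 16, between 22951072 and 23082078. Kng1 had 804 ± 23.4 CPM in CKO and 682 ± 22.04 CPM in WT, and Kng2 had 116 ± 2.04 CPM in CKO and 138 ± 5.48 CPM in WT. They moved in opposite directions (log2 fold changes 0.24, SE 0.0354, and -0.26, SE 0.0369; edgeR adjusted p = 7.98e-06 and 5.37e-06). Their counts were not whole in any of the 8 libraries, since RSEM divides reads that match both, so the split between them is uncertain. Their sum was 919.9 ± 25.2 CPM in CKO and 820.2 ± 20.1 CPM in WT. Hrg, which encodes histidine-rich glycoprotein, a plasma protein that binds heparin and plasminogen, had 201, 189.6, 203 and 195 CPM in CKO, against 143, 163, 157 and 163 CPM in WT (log2 fold change 0.33, SE 0.0423; edgeR adjusted p = 1.18e-06).

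Of the 6 protease inhibitors 2 were higher, 3 lower and 1 not called, while 30.2% of all genes tested were called higher and 31.2% lower. Their log2 fold changes ran from -1.65 to 1.96. Serpina10, the protein Z-dependent protease inhibitor of factor Xa, had 76.9, 75.2, 63.9 and 71.5 CPM in CKO, against 134, 134, 126 and 132 CPM in WT. It fell to 54.6% of the WT level, with the smallest p of all coagulation genes (log2 fold change -0.87, SE 0.0473; edgeR adjusted p = 3.08e-12), while its cofactor gene Proz was not called. Serpind1, which encodes heparin cofactor II, a thrombin inhibitor, had 34.9 ± 1.25 CPM in CKO and 44.6 ± 3.63 CPM in WT (log2 fold change -0.36, SE 0.0539; edgeR adjusted p = 9.72e-06). Serpinc1, which encodes antithrombin and was the most abundant inhibitor gene here, had 549, 525, 567 and 513 CPM in CKO, against 488, 519, 488 and 484 CPM in WT. The ranges overlapped and the rise was small (log2 fold change 0.12, SE 0.0381; edgeR adjusted p = 0.00883). Exons of Serpinc1 overlap those of Zbtb37 on the opposite strand, and without a stated strand setting their reads cannot be told apart, although Zbtb37 had only 2.31 ± 0.347 CPM in CKO and 2.43 ± 0.298 CPM in WT.

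A2m, which encodes the broad protease trap alpha-2-macroglobulin, had 2.29, 2.10, 3.11 and 1.75 CPM in CKO, against 7.81, 7.05, 7.52 and 6.93 CPM in WT. At 37 to 72 counts per CKO library and 144 to 180 per WT library it fell to 31.8% of the WT level, with no overlap (log2 fold change -1.65, SE 0.131; edgeR adjusted p = 1.08e-09). Serpina5, the protein C inhibitor gene, which in mice is expressed mainly in the reproductive tract, had only 10 to 23 counts in CKO libraries and 14 to 24 in WT libraries (95% interval -0.75 to 0.37; edgeR adjusted p = 0.569).

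Tfpi encodes tissue factor pathway inhibitor, which blocks factor Xa and the complex of tissue factor and factor VII. It had 35 to 51 counts per CKO library and 7 to 14 per WT library, that is 1.74, 1.75, 2.20 and 1.94 CPM in CKO, against 0.434, 0.680, 0.365 and 0.469 CPM in WT. It was 3.89-fold higher in CKO (log2 fold change 1.96, SE 0.227; edgeR adjusted p = 2.88e-07). Of the endothelial markers measured in the same libraries, Cdh5 was the most abundant, at 35.1 ± 1.61 CPM in CKO and 11.6 ± 0.724 CPM in WT, while Vwf had at most 5 counts in any library. The part of endothelial RNA in the rise of Tfpi was not tested. The stretch upstream of its outermost annotated start, chr2:84476710-84476939 (minus strand), is shown because among the 30 starts of the 28 coagulation genes with a promoter sequence it alone had the letters TATAA 40 to 20 bases before the start, marked in capitals with an AAAGTCC match, as in sites of HNF4, at position 28.
Tfpi: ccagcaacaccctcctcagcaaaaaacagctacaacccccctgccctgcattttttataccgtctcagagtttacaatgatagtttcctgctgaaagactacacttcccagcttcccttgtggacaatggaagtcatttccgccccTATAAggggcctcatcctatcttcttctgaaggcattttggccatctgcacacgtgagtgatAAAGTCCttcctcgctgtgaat

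The receptors of the protein C system, thrombomodulin (Thbd) and the endothelial protein C receptor (Procr), were low in both genotypes. Procr had 3.77, 3.85, 3.98 and 4.31 CPM in CKO, against 2.95, 3.21, 3.18 and 3.28 CPM in WT (log2 fold change 0.33, SE 0.114; edgeR adjusted p = 0.0161), and this call ended with DESeq2 (adjusted p = 0.0557; range over the alternatives 0.0108 to 0.0557). Thbd had 8.72, 11.3, 10.9 and 8.38 CPM in CKO and 8.46, 8.55, 9.08 and 7.73 CPM in WT. The ranges overlapped and the gene was not called (log2 fold change 0.22, 95% interval 0.01 to 0.42; edgeR adjusted p = 0.0618). Of 16 alternatives 4 called it higher (upper-quartile scaling, a replicate block, and leaving out CKO replicate 1 or CKO replicate 4), over a range of adjusted p from 0.0155 to 0.199. Endothelial markers were higher in the same CKO libraries, and their part in these values was not tested. Cpb2, which encodes a thrombin-activated carboxypeptidase that slows fibrinolysis, had 326, 325, 314 and 312 CPM in CKO, against 370, 374, 354 and 368 CPM in WT, without overlap (log2 fold change -0.20, SE 0.0341; edgeR adjusted p = 4.05e-05).

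**Figure D4:**
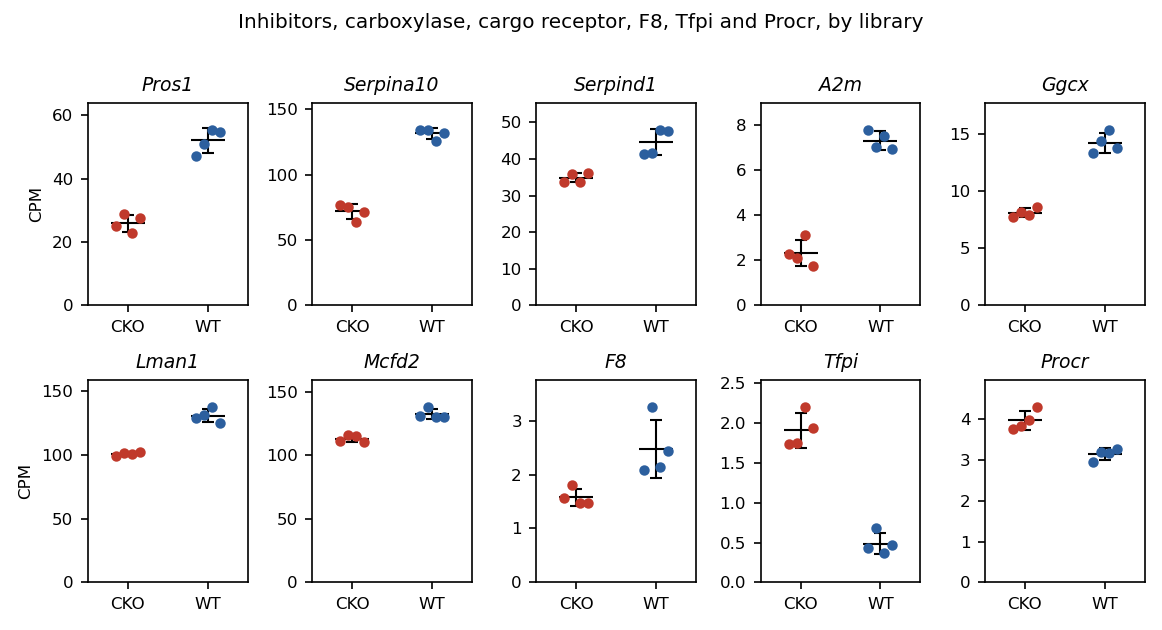
CPM (y axis, from 0) in each library for 10 coagulation genes, CKO left of WT, with the mean and SD of 4 libraries. CKO libraries lie below WT libraries for Pros1, Serpina10, Serpind1, A2m, Ggcx, Lman1, Mcfd2 and F8, and above them for Tfpi and Procr.

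Genes with related roles were drawn from lists of general knowledge. For comparison with the counts below, 30.2% of all genes tested were called higher and 31.2% lower. Of 11 further genes of fibrinolysis 4 rose and 5 fell. Plasminogen (Plg), the precursor of the protease that dissolves fibrin, had 434 ± 28.1 CPM in CKO and 413 ± 18.2 CPM in WT (edgeR adjusted p = 0.165). Of 9 further tested genes of vitamin K use and Gla proteins 3 rose and 3 fell. Gas6, the vitamin K-dependent protein closest to protein S, fell with it, with 59.3 ± 2.30 CPM in CKO and 87.5 ± 2.54 CPM in WT (log2 fold change -0.56, SE 0.0375). Of 9 tested thrombin receptors, protein S receptors and related genes 2 rose and 1 fell. Axl, a receptor gene for Gas6, rose to 7.25 ± 0.489 CPM in CKO, against 1.08 ± 0.332 CPM in WT (log2 fold change 2.75, SE 0.154). Tgm2, a transglutaminase gene related to F13a1, rose to 7256 ± 475 CPM in CKO, against 4216 ± 115 CPM in WT (log2 fold change 0.78, SE 0.0427). The thrombin receptor gene F2r fell, with 37.9 ± 2.04 CPM in CKO and 71.3 ± 2.70 CPM in WT (log2 fold change -0.91, SE 0.0439). Among 12 genes of clearance, processing and transport 4 rose and 5 fell. Lrp1, a receptor that clears factor VIII and protease complexes, had 265 ± 10.01 CPM in CKO and 392.05 ± 27.5 CPM in WT (log2 fold change -0.57, SE 0.0449).

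Of 16 other tested plasma protease inhibitors and fibrinogen-like proteins 5 rose and 8 fell. Fgl1, which encodes a fibrinogen-related protein of hepatocytes, had 284 ± 9.70 CPM in CKO and 419 ± 24.2 CPM in WT (log2 fold change -0.56, SE 0.0413), the opposite direction to the fibrinogen chains. Of 22 tested transcription factors of hepatocytes 7 rose and 11 fell. Cebpb rose to 141 ± 7.54 CPM in CKO, against 88.4 ± 4.81 CPM in WT (log2 fold change 0.67, SE 0.0445), and Nr1h4, the bile acid receptor gene, fell to 18.2 ± 1.20 CPM, against 42.6 ± 1.23 CPM in WT (log2 fold change -1.23, SE 0.0536). Hnf4a, the most abundant of the factors listed, had 366 ± 1.86 CPM in CKO and 356 ± 8.02 CPM in WT (edgeR adjusted p = 0.268). Over all 79 related genes tested 25 rose and 33 fell, or 73.4% called, against 61.4% of all genes tested. By list, the share called ran from 33.3% (thrombin receptors, protein S receptors and related genes) to 81.8% (fibrinolysis and hepatocyte transcription factors).

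**Figure D5:**
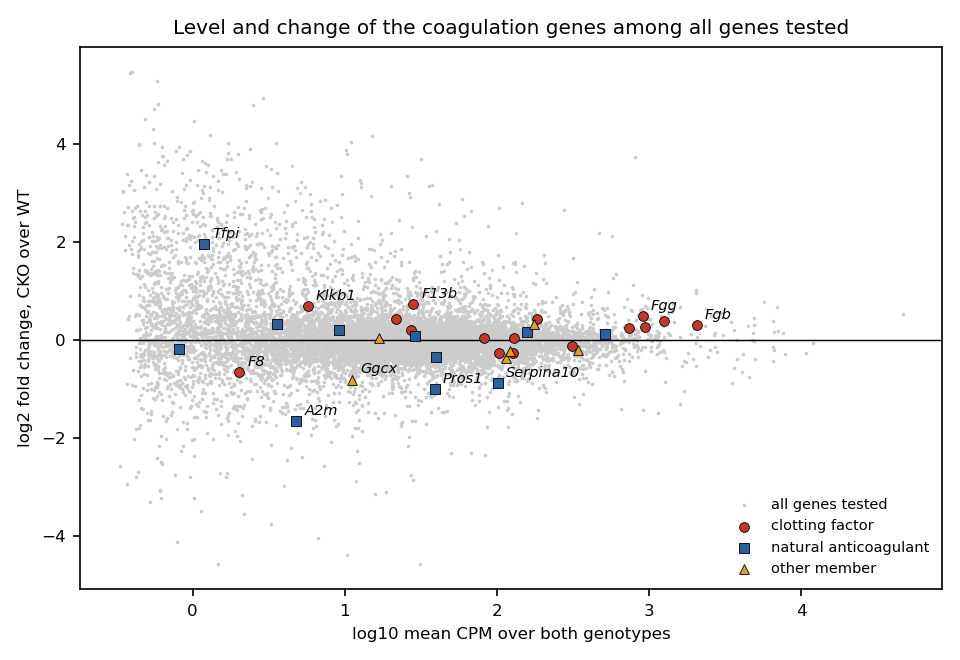
Log2 fold change (CKO over WT, y axis) against the log10 of the mean CPM over both genotypes (x axis) for 12122 genes (grey) and the 33 tested coagulation genes, marked by class. The abundant clotting factors have log2 fold changes up to 0.49 for Fgg, and the largest changes among the coagulation genes, of Tfpi and A2m, are at low levels.

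Promoter sequences of 250 bases before to 50 from the annotated start were matched for 28 of the 34 genes (30 starts), but not for Proc, Serpina10, Kng1, A2m, Thbd and Lman1. TAF2 is known, with TAF1, to contact the initiator element around the start of transcription, whose core is often CA. CA with its A at the annotated start was found at 12 of the 30 starts, against 19.2% of all 32851 promoters. The share was similar whether or not a gene was called. It was 6 of 14 starts of called higher genes, 4 of 9 of called lower genes and 2 of 5 of tested genes not called. TATAA in its usual window was found at 1 of the 30 starts, against 3.38% of all promoters. GTTAAT on either strand was found at 4 of 14 starts of higher genes (F13b, F2, Fga and Fgb), 0 of 9 of lower genes and 1 of 5 of tested genes not called (Proz), against 7.1% of all promoters. AAAGTCC on either strand was found at 4 of the 30 starts, against 4.21% of all promoters. Starts of F13a1, which was not tested, were among them. TTGCAA was found at 3 of the 30 starts, against 6.23%. At the 11838 promoters of tested genes, shares were 19.0% for CA, 2.11% for TATAA, 4.66% for GTTAAT, 4.16% for AAAGTCC and 4.84% for TTGCAA. These counts are descriptions of letters in 1 window per start, and the motifs do not overlap one another in the stretches shown.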

How the data were processed

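The deposited values are expected counts per gene that the authors estimated with RSEM on build mm10, per the submitters' processing notes. They were not scaled between libraries, and 2.85% were not whole (tolerance 0.005). The sources used here do not state the RSEM version, the aligner or the strand setting. The 8 columns whose names match the libraries' labels were used, and 8 columns that match no sample were left out. Counts were rounded and kept for 12122 genes by filterByExpr of edgeR (minimum count 10 and minimum total 15). CKO was compared with WT by the quasi-likelihood test of edgeR 4.0.16 on TMM-scaled libraries, in R 4.3.3, with Benjamini-Hochberg adjustment over these genes and a threshold of 0.05. CPM use TMM-scaled totals. The SE is the size of the log2 fold change over the square root of F. The fit was tested on simulated data. Alternatives used limma 3.58.1 and DESeq2 1.42.0 among others. No 2 libraries of a genotype agreed within sampling noise (chi-square per degree of freedom 3.16 to 8.60). At these depths 1 count was worth 0.0423 to 0.0522 CPM, and the floor of 3 counts covers counting error only.

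The members, lists, tests and alternatives were chosen with earlier results of these data known. All 34 members are named. The rule for related lists (up to 3 called genes of smallest p in each direction and the most abundant gene) was narrowed to at most 3 genes a list, and Plg and Plrg1 were named after their values were seen. A result of the fibrinolysis list is not reported here. Coordinates come from GENCODE M21 (GRCm38, the same assembly as mm10), and lengths from its transcripts matched to the table's RefSeq accessions.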

Additional observations from a re-analysis of the deposited data

Results flagged for a closer look

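Of 68 groups of 4 values (34 genes in each genotype), 4 held a library far from the other 3, all in WT, by a Dixon test that chance passes in about 1 of 20 groups. F2 was at 808 CPM in WT replicate 4, against 869.7 to 878 CPM in the other WT libraries. Proc was at 143 CPM in the same library, against 151 to 153 CPM. Serpinc1 was at 519 CPM in WT replicate 2, against 484 to 488 CPM, and Mcfd2 at 138 CPM in that library, against 130.1 to 131 CPM. The calls of these genes were the same without either library.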

How the results depend on the processing

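In 16 alternatives the scaling (RLE, upper-quartile), the tool (DESeq2, limma-voom), the filter (none, stricter), a replicate block, the depth (thinned to the smallest library) or the set of libraries (each left out) was changed. The coagulation genes called higher numbered 14 (DESeq2) to 16 and those called lower 12 in every alternative, against 15 and 12. Of 33 tested genes, 31 kept their direction and their side of the threshold, or were uncalled, in all of them, and the exceptions were Procr and Thbd. F3 and Vkorc1, never called, crossed 0 in some. Pros1 was called lower in all, but its log2 fold change ran from -1.05 to -0.94, so it did not reach -1 in every alternative. The median log2 fold change of all genes moved by less than 0.1 under each scaling. Replicate numbers did not pair the samples: deviations of same-numbered libraries correlated at -0.0686 to 0.0114. The replicate block called 16 coagulation genes higher and 12 lower, with Thbd added. Serpina5 did not pass the stricter filter. F13a1 did not pass the main filter, and at these depths Tfpi, F8 and Serpina5 rest on few counts.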
